A study of Mus musculus with 24 samples.

Results

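The genes described here are 36 genes of the neuronal cytoskeleton, of neuronal adhesion and RNA binding, and of the synapse. They were taken by symbol from a fixed list, which was chosen with earlier results of these data known. Their counts beside the share of all probe sets are therefore description and no test of the list. Each gene was read from the probe set annotated to that symbol alone with the highest mean over the arrays. Of the 36 genes, 35 had such a probe set, as had 19938 genes in all on an array of 28856 probe sets. Vamp2, a vesicle SNARE, lay on a probe set annotated to several genes and has no value here. The 35 genes comprised 11 of the cytoskeleton and axon growth, 5 of adhesion and RNA binding, 12 of synaptic vesicles and release, and 7 of synaptic adhesion, scaffold and receptors. Expression was measured on 24 whole-transcript mouse gene arrays, and all values are log2 values as deposited.

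All cultures were primary cells of C57Bl/6 mouse fetuses at embryonic day 14, described as neural stem cell cultures and kept in expansion medium. They came from cortex or from mesencephalon, called midbrain below, were labelled as cultured for 48 h or 13 d, and were kept at 3% or 21% O2. The 8 combinations held 3 arrays each. Whether the 3 arrays of a group represent independent cultures is not given in the labels; p-values here rest on array-to-array spread, possibly technical. The labels place the midbrain 13 d arrays in a first array run and all others in a second one. The run and that group therefore cannot be told apart when its levels are set against another group's. In a difference of oxygen responses between that group and another, only a run effect equal at both oxygen levels cancels. In whole cultures, fewer neurons and less RNA per neuron cannot be told apart.

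Young neurons first build a cytoskeleton of neuron-specific tubulin, microtubule-associated proteins and neurofilaments that carries axon growth. Synaptic vesicle proteins store transmitter and fuse with the membrane through SNARE proteins, synaptotagmins sense the calcium that triggers release, and complexins regulate it. Receptors and scaffolds such as Dlg4 (PSD-95) sit on the receiving side. Many neuronal genes are repressed in non-neuronal cells by REST, a zinc finger factor that binds a long DNA element with a left and a right arm.

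Promoters are shown because the genes moved together between groups and REST is the textbook repressor of such genes. RefSeq promoter windows of GRCm38.p6, from 250 bases before to 50 after the start, were found for 25 of the genes, with 38 windows. The left arm CAGCACC and the right arm GGACAGC were searched on both strands. At least 1 arm lay in 7 of the 38 windows (18.42%) and in 4312 of 32851 windows of all genes (13.13%). The 7 genes were Map2, Gria2, Tubb3, Dlg4, Map1b, Syn1 and Glra2. The spaced form of the element, with the left arm, any 2 bases and the right arm without its last base, was in 12 windows of all genes (0.04%) and in 0 of the 38. A shorter form, without the first base of the left arm, was tried only after the Gria2 window had been read and seen to hold it. It was in 17 windows of all genes (0.05%) and, of the 38, in the Gria2 window alone, so that match is a description of 1 sequence and not a search result. All searches took exact matches only, so a site with 1 differing base was not counted. In the Syn1 window the first left arm is followed by 2 bases and ggtcag, 1 base away from the spaced form. This near match was seen by reading that window, and other windows were not searched for such forms. Capitals mark the single arms below. Tubb3 (chr8:123411303-123411602, plus strand) is shown as the window with both arms, Syn1 (chrX:20920869-20921168, minus strand) with the left arm at 2 places, and Gria2 (chr3:80802786-80803085, minus strand) with the right arm. Syn2 (chr6:115134652-115134951, plus strand), which was highest in midbrain 13 d at 21% O2, is shown as a window with neither arm. The windows of L1cam, Islr2 and Syt1, which were highest in midbrain 48 h or cortex labelled 13 d, held neither arm as well. Whether an arm goes with the order of groups was not tested.
Tubb3: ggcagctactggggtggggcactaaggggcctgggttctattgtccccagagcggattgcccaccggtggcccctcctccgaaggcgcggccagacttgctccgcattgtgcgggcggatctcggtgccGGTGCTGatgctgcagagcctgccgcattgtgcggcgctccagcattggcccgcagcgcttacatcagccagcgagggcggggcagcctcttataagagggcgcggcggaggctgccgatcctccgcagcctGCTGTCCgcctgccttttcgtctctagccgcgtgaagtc
Syn1: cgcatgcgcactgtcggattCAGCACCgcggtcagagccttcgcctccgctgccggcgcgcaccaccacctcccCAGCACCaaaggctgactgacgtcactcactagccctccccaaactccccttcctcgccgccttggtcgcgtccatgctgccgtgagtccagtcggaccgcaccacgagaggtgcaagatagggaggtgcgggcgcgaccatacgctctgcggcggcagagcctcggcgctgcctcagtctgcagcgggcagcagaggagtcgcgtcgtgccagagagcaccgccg
Gria2: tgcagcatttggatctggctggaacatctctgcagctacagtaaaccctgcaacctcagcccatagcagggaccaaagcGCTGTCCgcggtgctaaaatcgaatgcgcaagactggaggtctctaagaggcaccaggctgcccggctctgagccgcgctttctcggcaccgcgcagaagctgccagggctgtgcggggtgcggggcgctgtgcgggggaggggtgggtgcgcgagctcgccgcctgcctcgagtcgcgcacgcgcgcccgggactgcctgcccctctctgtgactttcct
Syn2: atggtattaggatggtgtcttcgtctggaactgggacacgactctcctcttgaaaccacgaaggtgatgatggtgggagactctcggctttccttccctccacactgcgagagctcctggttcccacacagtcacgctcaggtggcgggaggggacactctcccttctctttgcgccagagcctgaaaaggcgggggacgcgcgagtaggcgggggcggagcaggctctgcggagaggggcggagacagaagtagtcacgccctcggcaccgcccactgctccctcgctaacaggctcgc
The level of Rest itself was lowest in midbrain 48 h, at 8.11 ± 0.13 (SD, n = 3) in 21% O2 and 7.89 ± 0.06 in 3% O2. It was 8.83 ± 0.10 and 8.73 ± 0.15 in cortex labelled 13 d, 9.46 ± 0.01 and 9.65 ± 0.13 in cortex labelled 48 h, and 9.36 ± 0.05 and 9.70 ± 0.06 in midbrain 13 d. Its part in the levels below was not tested.

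Nearly all of the genes were high in midbrain at 48 h and in cortex labelled 13 d, and low in midbrain at 13 d and in cortex labelled 48 h. The order of the times was thus opposite in the 2 regions as labelled. In these genes cortex labelled 13 d resembled midbrain 48 h, and cortex labelled 48 h resembled midbrain 13 d. The labels were used as given. Whether the cortex times are as labelled was not tested, and this bears on every comparison below between cortex times or between regions at 1 labelled time. The mean of the 11 cytoskeleton genes was 12.16 ± 0.04 (SD over arrays, n = 3) in midbrain 48 h and 8.94 ± 0.06 in midbrain 13 d at 21% O2. In cortex at 21% O2 it was 9.68 ± 0.20 at the labelled 48 h and 11.61 ± 0.03 at 13 d. The 19 vesicle and receptor genes had means of 10.74 ± 0.04, 8.17 ± 0.04, 8.75 ± 0.15 and 10.45 ± 0.06 in the same order of groups. Both sides of the neuron therefore showed the same order of groups.

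**Figure D1:**
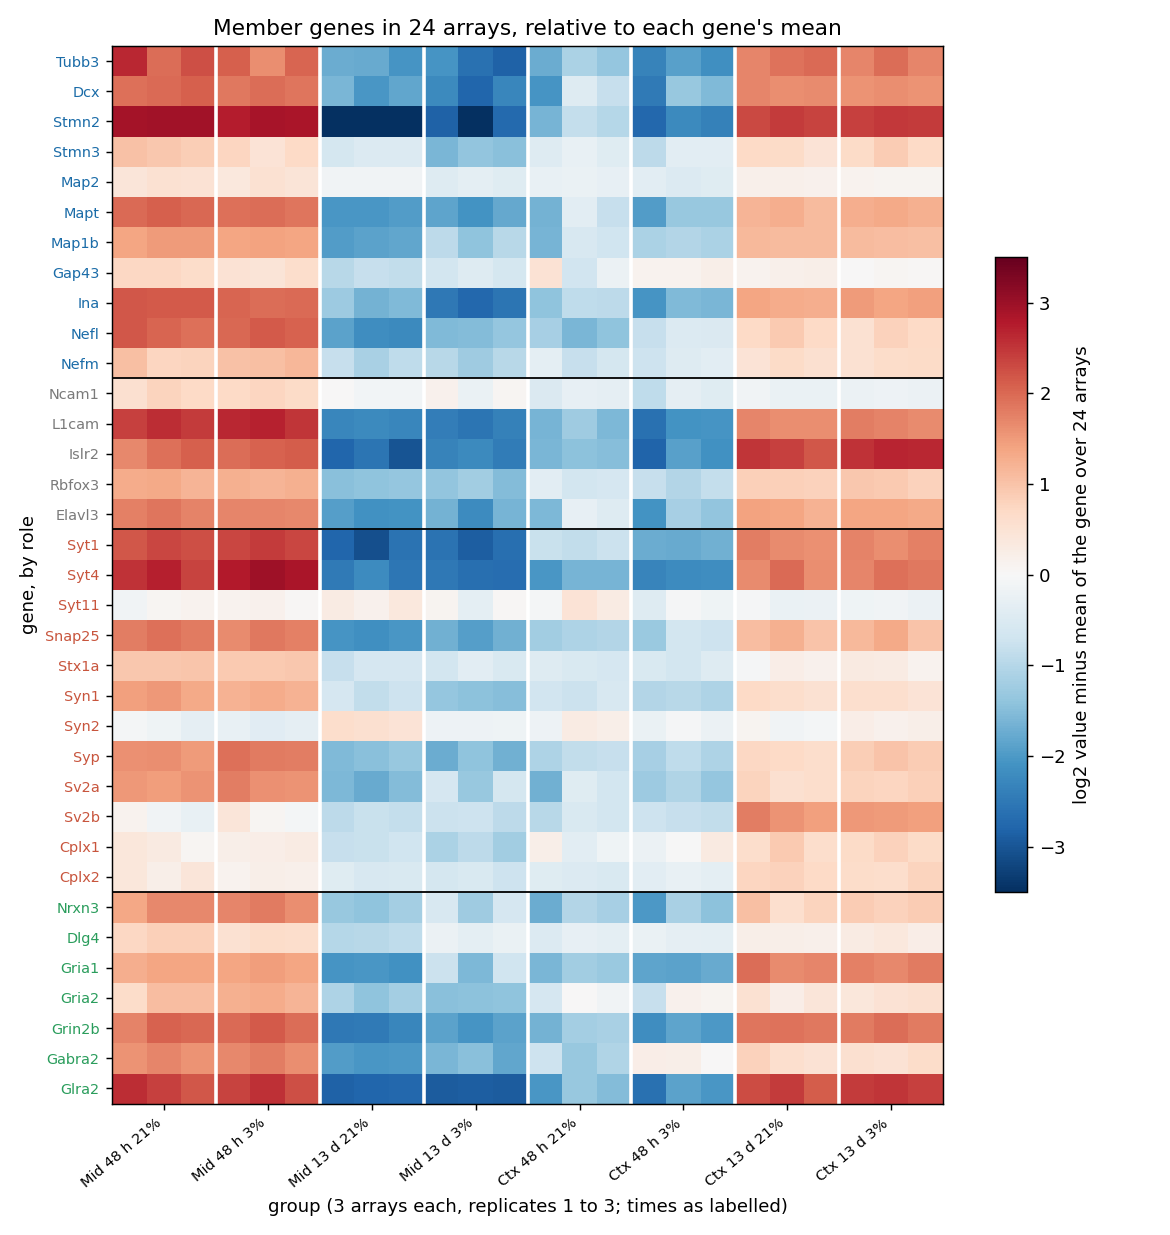
Each row is 1 of 35 genes, ordered by role, and each column is 1 of 24 arrays; colour is the log2 value minus the gene's mean over all arrays, and values beyond the end of the scale take its end colour. Midbrain 48 h and cortex labelled 13 d are red for nearly every gene, while the group means of Syt11, Syn2 and Map2 span 0.49, 0.88 and 0.91, the smallest distances of the 35 genes.

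The distance between the highest and the lowest group mean had a median of 4.04 for the cytoskeleton genes, from 0.91 for Map2 to 6.85 for Stmn2. For the vesicle genes the median distance was 2.65, from 0.49 for Syt11 to 5.47 for Syt4. It was 3.69 for the receptor and scaffold genes, from 1.74 for Dlg4 to 5.36 for Glra2, and 3.83 for the adhesion and RNA-binding genes. Stmn2, a microtubule-destabilising protein of growing axons, read 13.29, 13.33 and 13.32 in midbrain 48 h and 6.59, 6.42 and 6.38 in midbrain 13 d at 21% O2. Glra2, a fetal glycine receptor subunit, read 10.90, 10.71 and 10.50 against 5.50, 5.54 and 5.57 in those groups. For these genes the 2 midbrain times did not come near each other.

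A few genes stayed outside this order. Syn2, a synapsin that coats vesicles, was highest in midbrain 13 d at 21% O2, with 10.51, 10.47 and 10.39, against 9.82, 9.76 and 9.60 in midbrain 48 h. At 3% O2 its midbrain means lay close, at 9.57 at 48 h and 9.74 at 13 d. In cortex at 3% O2 it followed the common order, 0.35 ± 0.09 higher at the labelled 13 d (limma adjusted p = 0.004068). Syt11, a synaptotagmin that does not bind calcium, lay between 11.93 and 12.86 in all cortex and between 12.05 and 12.75 in all midbrain arrays. At 21% O2 its midbrain 13 d arrays, at 12.69, 12.54 and 12.75, lay above those of 48 h, at 12.26, 12.45 and 12.51. That is against the common order. In cortex at 21% O2 its mean was also lower at the labelled 13 d (12.23) than at 48 h (12.62), with slight overlap. At 3% O2 its times overlapped in both regions. The times of Syt1 and Syt4 overlapped in neither region. The cortex means of Gap43 lay close, at 11.33 at the labelled 48 h and 11.63 at 13 d in 21% O2. In 3% O2 they were 11.61 and 11.50, against the common order. Ncam1 in cortex labelled 13 d, at 12.355 in 21% and 12.357 in 3% O2, lay below midbrain 13 d, at 12.49 and 12.55.

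**Figure D2:**
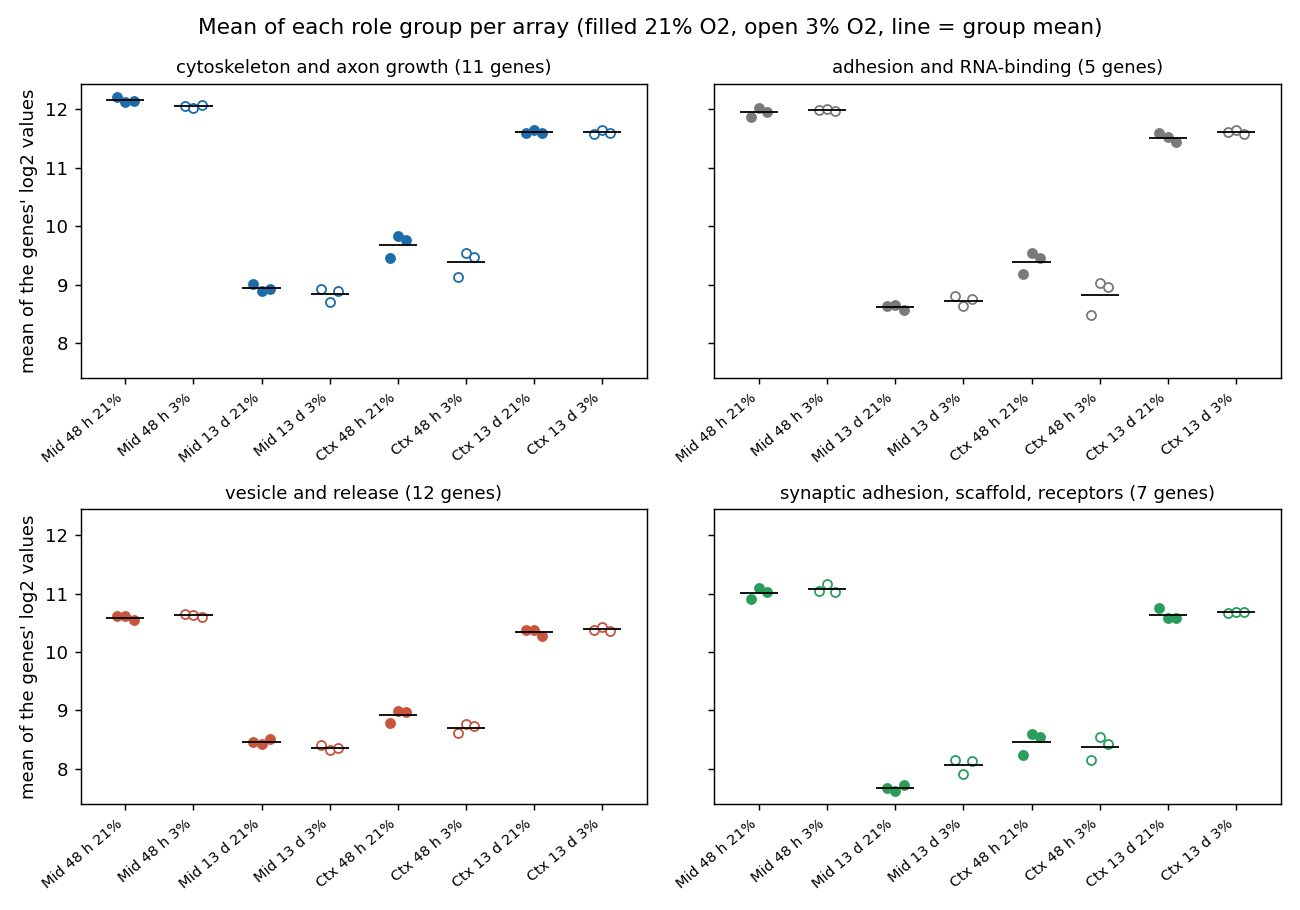
Each panel gives the mean log2 value of 1 role group per array, with filled points for 21% O2, open points for 3% O2 and a line at the mean of 3 arrays. All 4 role groups are high in midbrain 48 h and cortex labelled 13 d, and the receptor group of midbrain 13 d lies at 7.68 ± 0.04 in 21% O2 and 8.07 ± 0.13 in 3% O2.

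Between the midbrain times, which differ in array run, values are given without a test. At 21% O2, all 3 arrays of 48 h lay above all 3 of 13 d for 33 of the 35 genes, against 28.1% of all probe sets with a symbol. The median difference was 3.14, and 29 genes differed by more than 1, against 7.45% of all. At 3% O2 the corresponding values were 33 genes against 27.8%, a median of 2.66, and 28 genes against 8.04%.

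Within cortex the times shared a run and were tested with limma, with p-values adjusted over 23410 probe sets and a threshold of 0.05. At 21% O2, cortex labelled 13 d was higher than cortex labelled 48 h for 31 genes and lower for 1, against 37.2% of all probe sets called (16.8% higher, 20.4% lower). The median difference of the genes was 2.08 and that of all probe sets -0.03. At 3% O2, 33 genes were higher and 0 lower, against 42.2% of all called (17.5% higher, 24.7% lower), with a median of 2.01.

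Axonal and synaptic genes were both higher, with median differences of 2.13 for the cytoskeleton, 1.42 for the vesicle and 2.12 for the receptor and scaffold genes at 21% O2. By count, 10 of 11 cytoskeleton genes were higher, 10 of 12 vesicle genes were higher and 1 lower, and 7 of 7 receptor and scaffold genes were higher. Grin2b, an NMDA receptor subunit, read 7.30, 7.77 and 7.82 at the labelled 48 h and 10.84, 10.87 and 10.81 at 13 d, a difference of 3.21 ± 0.12 (SE; limma adjusted p = 4.709e-14). Syt4, a synaptotagmin of vesicles and dense cores, differed by 3.52 ± 0.12 (limma adjusted p = 2.213e-14). Tubb3, the neuron-specific beta tubulin, differed by 3.26 ± 0.20 (limma adjusted p = 7.36e-11). The gene lower at 13 d was Syt11, by -0.39 ± 0.13 (limma adjusted p = 0.01945). That call of Syt11 was lost without cortex 48 h 21% O2 replicate 2 (-0.27) or 3 (-0.36) and without cortex 13 d 21% O2 replicate 2 (-0.35) or 3 (-0.36). It was also lost under quantile normalization (-0.33), with the compared arrays alone and with the replicate block.

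Gria2, an AMPA receptor subunit, was 0.64 ± 0.19 higher at 21% O2 and 0.67 ± 0.19 at 3% O2 (limma adjusted p = 0.0103 and 0.006695). Its call was lost without cortex 48 h replicate 1, at 0.46 in 21% O2 and 0.36 in 3% O2. It was also lost with the replicate block at 21% O2 and with the compared arrays alone at 3% O2. At 3% O2 the call of Ncam1, a neural adhesion molecule, at 0.33 was lost without cortex 48 h replicate 1 (0.16) and without cortex 13 d replicate 1 (0.33) or 2 (0.33), and likewise with the compared arrays alone and with the replicate block.

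Other lists moved with the genes in cortex. Of 18 other neuronal cytoskeleton genes, 13 were higher in cortex labelled 13 d at 21% O2 and 1 lower, led by Dpysl5 at 2.00, and of 30 other synaptic genes 21 were higher and 4 lower. Of 12 neurogenic factors with Rest, 10 were higher and 1 lower; Tbr1, a cortical neuron factor, was 4.57 higher and Rest was lower, at -0.63 ± 0.08. The 7 measured oligodendrocyte lineage genes were all lower (median -2.09), with a list mean of 8.69 to 8.78 per array at 13 d and 10.06 to 11.14 at 48 h. Of 8 astrocyte genes 6 were lower (median -1.25), with a list mean of 8.72 to 8.80 at 13 d and 9.04 to 10.47 at 48 h. Of 7 neural progenitor genes 1 was higher and 3 lower. The part of these lists in the result was not tested.

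Midbrain was higher than cortex at the labelled 48 h. At 21% O2, 33 genes were higher and 1 lower, against 54.8% of all probe sets called (24.3% higher, 30.5% lower), with a median of 2.49. At 3% O2, 32 were higher and 0 lower, against 61.2% (24.3% higher, 36.9% lower), with a median of 2.63. L1cam, an axonal adhesion molecule, differed by 3.96 ± 0.11 at 21% O2 (limma adjusted p = 3.799e-16), with 11.87, 12.06 and 11.93 in midbrain and 7.85, 8.23 and 7.90 in cortex. The gene lower in midbrain was Syn2, at -0.29 ± 0.09 (limma adjusted p = 0.01104). Its call was lost without midbrain 48 h 21% O2 replicate 3 (-0.23) and without cortex 48 h 21% O2 replicate 2 (-0.20) or 3 (-0.24). At 21% O2 the call of Cplx1, at 0.37, was lost without midbrain replicate 1 (0.30) or 2 (0.34) and without cortex replicate 2 (0.24) or 3 (0.35). Both calls were also lost with the compared arrays alone and with the replicate block. At 3% O2 the call of Syt11, at 0.32, was lost without midbrain replicate 1 (0.32) or 2 (0.31) and without cortex replicate 1 (0.21).

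Markers of other cells moved in that comparison too. At 21% O2, 7 of 8 astrocyte genes were lower in midbrain and 0 higher, among them Aldoc (-3.06) and Slc1a3 (-2.43), with a list mean of 8.14 to 8.43 per array in midbrain and 9.04 to 10.47 in cortex. Of 7 oligodendrocyte lineage genes 6 were lower, among them Olig1 (-2.72) and Cspg4 (-2.55), with a list mean of 8.19 to 8.57 against 10.06 to 11.14. Of 6 microglia genes 5 were higher, led by Cd68 (2.78), with a list mean of 7.43 to 7.59 against 6.52 to 6.66. All 5 measured cycling genes were lower, led by Top2a (-1.97), with a list mean of 9.91 to 10.37 against 11.37 to 11.71. Of the neural progenitor list, Sox2 (-1.68), Nes (-1.84) and Hes5 (-2.3) were among the lower genes, and no gene was called higher. The part of these lists in the result was not tested.

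The 2 groups with high levels differed gene by gene. Midbrain 48 h was higher than cortex labelled 13 d for 21 genes at 21% O2 and lower for 5, against 41.4% of all probe sets called (19.5% higher, 21.9% lower), with a median of 0.53. At 3% O2, 20 were higher and 5 lower, against 42.8% (19.7% higher, 23.1% lower), with a median of 0.40. Of 11 cytoskeleton genes, 7 were higher at 21% O2 and 6 at 3% O2, with 0 lower at either. Of 12 vesicle genes, 7 were higher and 3 lower at 21% O2, and 7 higher and 4 lower at 3% O2.

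Nefl, the light neurofilament chain, led the higher genes. It read 11.63, 11.49 and 11.37 in midbrain and 10.15, 10.35 and 10.13 in cortex at 21% O2, a difference of 1.28 ± 0.12 (limma adjusted p = 3.138e-08). Gabra2, a GABA-A receptor subunit, was 0.98 ± 0.11 higher (limma adjusted p = 7.866e-07), and Syp, the vesicle membrane protein synaptophysin, 0.90 ± 0.09 higher (limma adjusted p = 7.851e-08). Sv2b, a vesicle glycoprotein, went the other way, with 7.48, 7.23 and 7.08 in midbrain against 9.14, 8.92 and 8.80 in cortex (-1.69 ± 0.12, limma adjusted p = 1.997e-09). Its relative Sv2a was 0.87 ± 0.22 higher in midbrain (limma adjusted p = 0.003135). The complexins were lower in midbrain, Cplx1 at -0.45 and Cplx2 at -0.41, and so were Islr2, a membrane protein of axon growth, at -0.44 and Gria1, an AMPA receptor subunit, at -0.43.

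Some of these calls rested on single arrays. At 21% O2 the call of Gria1 was lost without midbrain replicate 1 (-0.40), 2 (-0.45) or 3 (-0.44) and without cortex replicate 1 (-0.34). That of Islr2 was lost without midbrain replicate 1 (-0.33) or 2 (-0.46) and without cortex replicate 1 (-0.36) or 2 (-0.43), and that of Cplx1 without midbrain replicate 3 (-0.36) and without cortex replicate 2 (-0.35). The call of Islr2 was also lost under quantile normalization (-0.34), with the second-run arrays alone and with the replicate block, and at 3% O2 under quantile normalization (-0.40).

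Higher calls were lost as well. At 21% O2, Gria2, at 0.53, was lost without midbrain replicate 2 (0.46) or 3 (0.47) and without cortex replicate 2 (0.46) or 3 (0.55). Stmn2, at 0.54, was lost without midbrain replicate 2 (0.54) or 3 (0.54) and without cortex replicate 1 (0.51) or 3 (0.54). Stmn3, at 0.32, was lost without midbrain replicate 1 (0.27) or 2 (0.32), without cortex replicate 3 (0.25) and in its second probe set (0.14). Gria2 and Stmn3 were also lost with the second-run arrays alone. At 3% O2, Gap43, a growth cone protein, was lost without midbrain replicate 3 (0.44) and without cortex replicate 1 (0.47), and Mapt, the axonal protein tau, without cortex replicate 3 (0.60).

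Other lists differed between these 2 groups. At 21% O2, 4 of 8 astrocyte genes were lower in midbrain, among them Aldoc (-1.87) and Gja1 (-1.39), and 1 was higher, Slc1a2 (1.2). The astrocyte list mean was 8.14 to 8.43 per array in midbrain and 8.72 to 8.80 in cortex. Of 7 oligodendrocyte lineage genes 3 were lower, led by Olig1 (-1.62), with a list mean of 8.19 to 8.57 against 8.69 to 8.78. Of 6 microglia genes 4 were higher, led by Cd68 (2.24), with a list mean of 7.43 to 7.59 against 6.74 to 6.81. All 5 measured cycling genes were lower, led by Top2a (-1.67), with a list mean of 9.91 to 10.37 against 11.37 to 11.44. Of the neural progenitor list, Sox2 (-0.97), Nes (-1.46) and Vim (-0.47) were among the lower genes, and no gene was called higher. Of 12 neurogenic factors with Rest, 8 were lower, with the forebrain factors Tbr1 at -5.32 and Dlx2 at -3.43, and 1 was higher, Myt1l (0.49). The part of these lists was not tested.

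**Figure D3:**
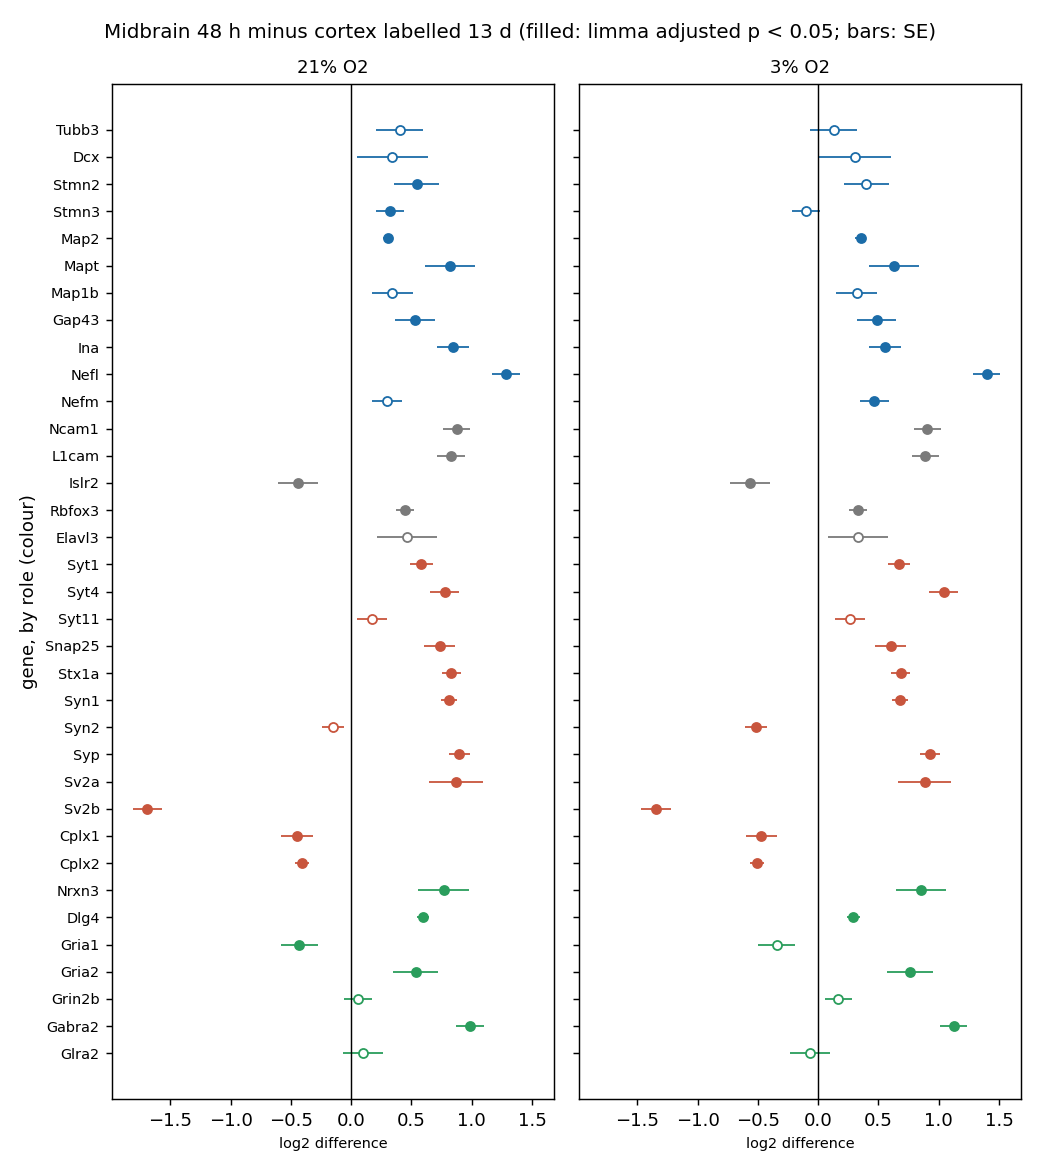
Points are the log2 difference of each gene, midbrain 48 h minus cortex labelled 13 d, with its SE, at 21% O2 on the left and 3% O2 on the right; filled points passed the limma threshold. Sv2b lies far to the left at both oxygen levels (-1.69 and -1.34), and Nefl far to the right (1.28 and 1.40).

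Oxygen was tested as 3% minus 21% O2 within each region and time. In midbrain at 48 h, 0 of 35 genes passed in limma, against 1.19% of all probe sets (0.701% higher, 0.491% lower), and 6 had an unadjusted p under 0.05. The changes ran from -0.34 to 0.33, and the 95% confidence intervals of all genes lay between -0.76 for Tubb3 and 0.70 for Gria2. In cortex labelled 13 d, 0 of 35 passed, against 0.607% of all probe sets (0.543% higher, 0.0641% lower), and 2 had an unadjusted p under 0.05. The changes there ran from -0.13 to 0.26 and the intervals from -0.69 for Dcx to 0.61 for Islr2. These are the 2 groups with high levels, and the intervals leave room for changes of that size.

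In midbrain at 13 d, 8 genes rose in 3% O2 and 6 fell, against 23.9% of all probe sets called (11.2% rose, 12.7% fell). Receptor and scaffold genes made up 4 of the 8. Dlg4, the scaffold PSD-95, read 9.88, 9.92 and 9.98 in 21% O2 and 10.67, 10.53 and 10.65 in 3% O2, a rise of 0.69 ± 0.05 (limma adjusted p = 2.057e-08). Gria1 read 6.82, 6.84 and 6.77 in 21% O2 and 8.13, 7.32 and 8.20 in 3% O2, a rise of 1.08 ± 0.15 (limma adjusted p = 2.37e-05). The groups of both genes did not overlap, and replicate 2 of 3% O2 was the lowest for Gria1. Overlap between oxygen levels is given here and below as description, without the share of all probe sets.

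Grin2b rose by 0.49 ± 0.12 (limma adjusted p = 0.003493), from 6.46, 6.48 and 6.67 to 7.10, 6.90 and 7.08. Gabra2 rose by 0.36 ± 0.11 (limma adjusted p = 0.0251), from 7.34, 7.26 and 7.27 to 7.68, 7.82 and 7.46. Neither gene's groups overlapped. The other 3 genes of the receptor group, Nrxn3 (0.51), Gria2 (-0.21) and Glra2 (-0.12), did not pass.

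The cytoskeleton genes split. Stmn2 rose by 0.89 ± 0.18 (limma adjusted p = 0.001139), from 6.59, 6.42 and 6.38 to 7.55, 6.83 and 7.68, without overlap. Map1b, a microtubule-associated protein of growing axons, rose by 0.77 ± 0.17, and Nefl rose by 0.62 ± 0.12. Ina, the neuronal intermediate filament alpha-internexin, fell from 9.75, 9.36 and 9.46 to 8.50, 8.27 and 8.46 (-1.11 ± 0.13, limma adjusted p = 3.386e-06). Stmn3, a relative of Stmn2, fell from 10.69, 10.82 and 10.82 to 9.70, 9.93 and 9.85 (-0.95 ± 0.12, limma adjusted p = 4.309e-06). Tubb3 (-0.66 ± 0.20) and Map2, a dendritic microtubule protein (-0.29 ± 0.04), also fell. A second Stmn3 probe set, dim in all 24 arrays at 5.61 to 6.20, changed by -0.03. Read from that probe set, the higher calls of Stmn3 were also lost between the cortex times at 21% O2 (0.02) and 3% O2 (0.003). The same held between the regions at the labelled 48 h and 21% O2 (0.16). Its lower calls in the differences of oxygen responses were lost too, as given further below.

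Of the vesicle genes, 1 rose and 2 fell. Both synapsins fell: Syn1 went from 9.41, 9.14 and 9.29 to 8.64, 8.56 and 8.52 (-0.71 ± 0.07, limma adjusted p = 2.283e-07). Syn2 went from 10.51, 10.47 and 10.39 to 9.72, 9.73 and 9.76 (-0.72 ± 0.09, limma adjusted p = 7.992e-06). Sv2a rose by 0.78 ± 0.22 (limma adjusted p = 0.01288), from 8.63, 8.43 and 8.67 to 9.61, 8.86 and 9.59, without overlap. None of the 5 adhesion and RNA-binding genes passed, and their largest change was 0.44 for Islr2.

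Sv2a was lost without 3% O2 replicate 1 (0.65) or 3 (0.66) and without 21% O2 replicate 2 (0.70). Gabra2 was lost without 3% O2 replicate 1 (0.34) or 2 (0.28) and without 21% O2 replicate 2 (0.35) or 3 (0.35), and Tubb3 without 3% O2 replicate 2 (-0.60) or 3 (-0.49) and without 21% O2 replicate 1 (-0.59) or 2 (-0.61).

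In the same cultures, 2 of 18 other cytoskeleton genes rose and 2 fell, and 9 of 30 other synaptic genes rose and 4 fell. Unc13a, a vesicle priming factor, rose by 1.51 ± 0.10 (limma adjusted p = 4.225e-09). Of the neurogenic factors with Rest, Rest rose by 0.33 ± 0.08 (limma adjusted p = 0.002864). Myt1l rose as well (0.41), and Neurog2 fell (-0.66). Of the neural progenitor list, Hes5, a Notch target of progenitors, fell (-1.50), Pax6 fell (-0.53) and Prom1 rose (0.48). Of the oligodendrocyte lineage list, Gpr17 fell (-2.18) and Cspg4 rose (0.5). Of 6 pericyte and fibroblast genes 3 rose. Their list mean was 7.43 to 7.52 per array in 21% O2 and 7.94 to 8.13 in 3% O2. Of 5 cycling genes 2 rose. The part of these lists in the result was not tested.

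**Figure D4:**
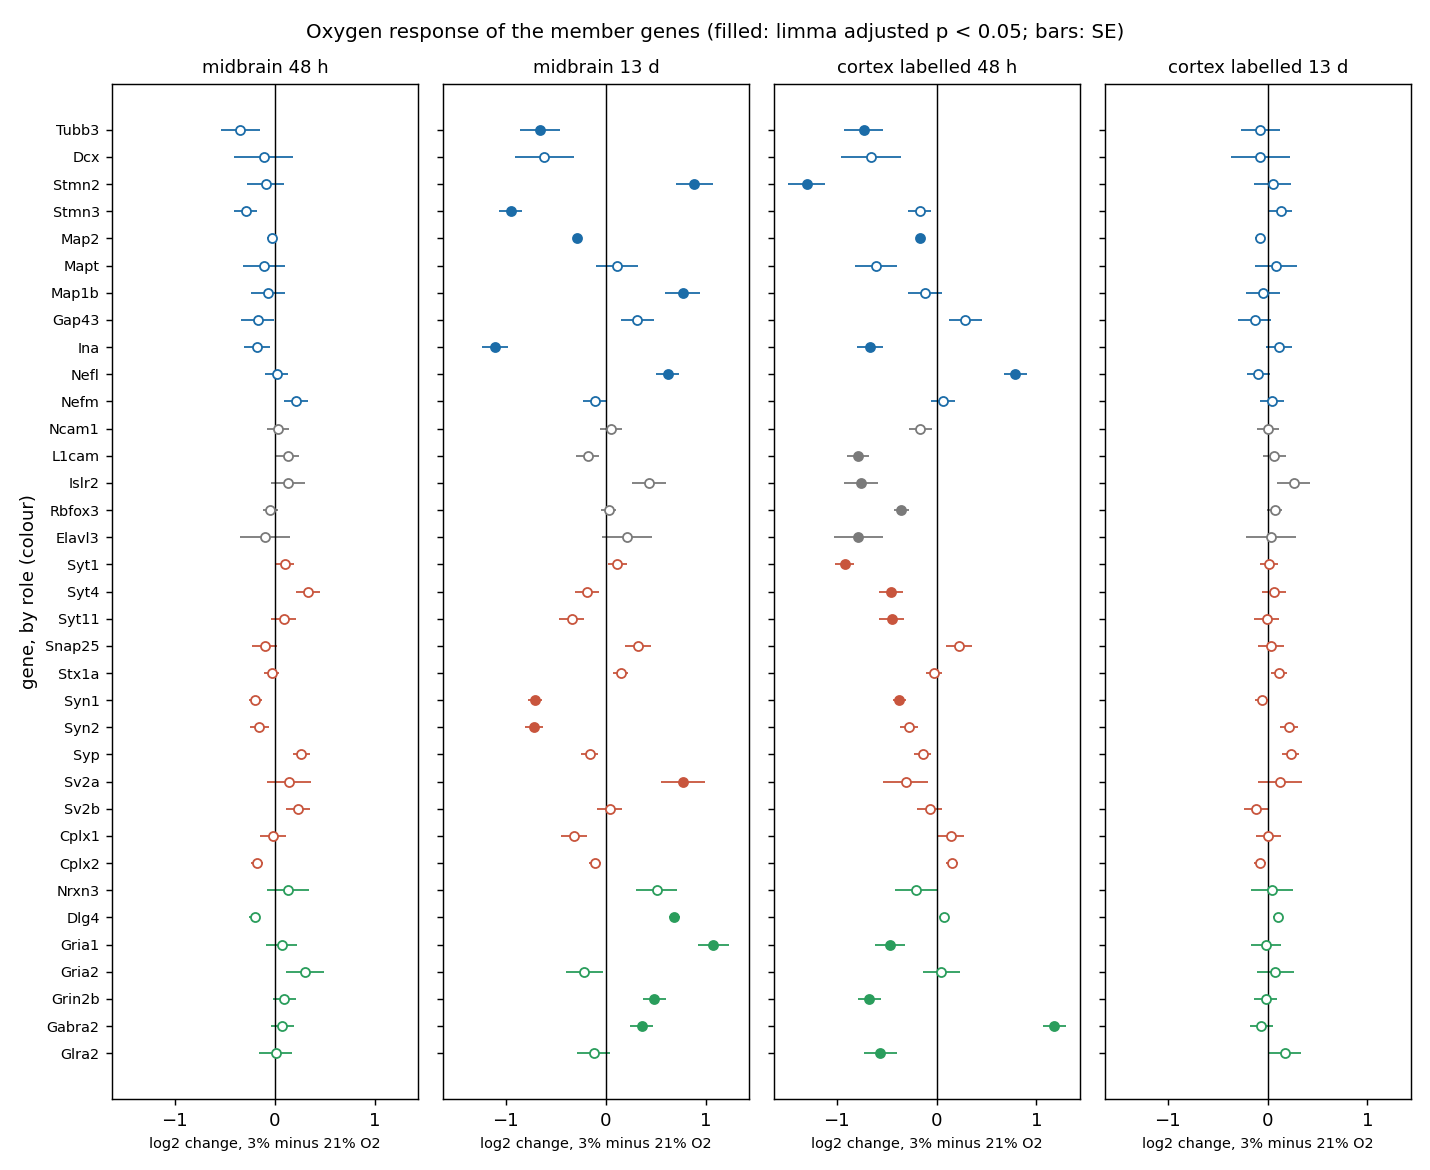
Each panel shows 1 region and time, with points for the log2 change of each gene, 3% minus 21% O2, bars for its SE and filled points for genes past the limma threshold. Filled points occur in midbrain 13 d (14 genes) and cortex labelled 48 h (17 genes), and none in the other 2 panels.

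In cortex labelled 48 h, 2 genes rose in 3% O2 and 15 fell, against 12.3% of all probe sets called (6.25% rose, 6.08% fell). The adhesion and RNA-binding genes had the lowest median, -0.76, and 4 of 5 fell. L1cam went from 7.85, 8.23 and 7.90 in 21% O2 to 6.85, 7.37 and 7.40 in 3% O2 (-0.79 ± 0.11, limma adjusted p = 0.0001163). Islr2 went from 8.27, 8.45 and 8.38 to 7.08, 7.99 and 7.77 (-0.76 ± 0.17, limma adjusted p = 0.004526). Neither gene's groups overlapped. Rbfox3, the neuronal splicing factor NeuN, fell by 0.35 on the log2 scale and Elavl3, a neuronal RNA-binding protein, by 0.78. The groups of Elavl3 overlapped, with 8.92, 10.22 and 10.05 in 21% O2 and 8.40, 9.33 and 9.11 in 3% O2.

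Of the 11 cytoskeleton genes, 4 fell and 1 rose. Stmn2 went from 8.76, 9.55 and 9.40 to 7.64, 8.16 and 8.02 (-1.30 ± 0.18, limma adjusted p = 9.174e-05). Ina went from 9.60, 10.13 and 10.10 to 8.94, 9.47 and 9.42 (-0.67 ± 0.13, limma adjusted p = 0.001927). Neither gene's groups overlapped. Tubb3 (-0.73) and Map2 (-0.16) fell too. Nefl rose from 8.28, 7.84 and 8.05 to 8.64, 8.96 and 8.93 (0.79 ± 0.12, limma adjusted p = 0.0001309).

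Of the 12 vesicle genes, 4 fell and 0 rose. Syt1, the main calcium sensor of release, went from 9.27, 9.17 and 9.28 to 8.30, 8.29 and 8.37 (-0.92 ± 0.09, limma adjusted p = 3.471e-06). Syn1 went from 9.34, 9.26 and 9.44 to 8.97, 9.02 and 8.92 (-0.37 ± 0.07, limma adjusted p = 0.0008847). Both fell without overlap. Syt4 (-0.46) and Syt11 (-0.45) were the others. The groups of Syt11 overlapped, with 12.33, 12.86 and 12.67 in 21% O2 and 11.93, 12.34 and 12.23 in 3% O2.

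Of the 7 receptor and scaffold genes, 3 fell and 1 rose. Grin2b went from 7.30, 7.77 and 7.82 to 6.79, 7.12 and 6.96 (-0.67 ± 0.12, limma adjusted p = 0.0005914). Gria1 (-0.47) and Glra2 (-0.56) also fell. The groups of Glra2 overlapped, with 6.29, 7.00 and 6.80 in 21% O2 and 5.70, 6.44 and 6.28 in 3% O2. Gabra2 rose from 8.55, 7.97 and 8.23 to 9.52, 9.48 and 9.29 (1.18 ± 0.11, limma adjusted p = 1.893e-06), without overlap.

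Replicate 1 of cortex labelled 48 h was low for many of these genes at both oxygen levels, as for Dcx, a microtubule protein of migrating neurons, with 8.76, 10.38 and 10.02 in 21% O2 and 8.37, 9.52 and 9.30 in 3% O2. The 21% O2 arrays also ranged from 9.04 to 10.47 in the astrocyte list and from 10.06 to 11.14 in the oligodendrocyte list; their part was not tested. The count of 17 was 23 without 21% O2 replicate 1, 10 without replicate 2 and 11 without replicate 3, and 12 without 3% O2 replicate 1. Fitted on these 6 arrays alone, 2 genes passed, Gabra2 and Syt1. Calls of Tubb3, Elavl3, Syt4, Syt11, Gria1 and Glra2 were each lost without 3% O2 replicate 1 (-0.63, -0.51, -0.42, -0.33, -0.46 and -0.34), without 21% O2 replicate 2 (-0.59, -0.54, -0.40, -0.33, -0.40 and -0.41) and without 21% O2 replicate 3 (-0.71, -0.62, -0.39, -0.42, -0.43 and -0.51). Map2 was lost without 3% O2 replicate 2 (-0.14) or 3 (-0.16) and 21% O2 replicate 2 (-0.15), Gria1 also without 3% O2 replicate 2 (-0.45) or 3 (-0.50), and Elavl3 also without 3% O2 replicate 3 (-0.86).

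Of the other cytoskeleton genes, 7 of 18 fell and 0 rose, led by Stmn1 at -0.45, and of 30 other synaptic genes 4 rose and 6 fell. Of 12 neurogenic factors with Rest, 4 fell, among them Neurod1 at -0.95. Of the neural progenitor list, Hes5 (-1.30) and Pax6 (-0.65) fell as well. Cspg4 of the oligodendrocyte lineage list (0.41) and P2ry12 of the microglia list (0.86) rose. Gfap, an astrocyte filament, was called lower (-1.19), but its groups overlapped, with 6.06, 8.14 and 8.01 in 21% O2 and 6.15, 6.26 and 6.25 in 3% O2. Rest was at 0.19 ± 0.08 and did not pass (limma adjusted p = 0.1265).

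The 2 groups with low levels thus shared some oxygen changes and not others. In direction, Nefl and Gabra2 rose in both, and Tubb3, Ina, Map2 and Syn1 fell in both. The size still differed for Gabra2, whose response was lower in midbrain by -0.82 (limma adjusted p = 0.004562). It also differed for Syn1, at -0.33 (limma adjusted p = 0.04023). Stmn2, Gria1 and Grin2b rose in midbrain 13 d and fell in cortex labelled 48 h. The difference between these responses was 2.19 for Stmn2, 1.55 for Gria1 and 1.16 for Grin2b. In that comparison 10 genes had a higher and 4 a lower response in midbrain, against 6.58% of all probe sets called (3.16% higher, 3.42% lower). The array runs differ in it, so only a run effect equal at both oxygen levels cancels.

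The oxygen response was also compared between times within a region and between regions at a labelled time, in the same limma fit. Midbrain 13 d lies in another array run, so in its differences only a run effect equal at both oxygen levels cancels. In midbrain, the response at 13 d was higher than at 48 h for 5 genes and lower for 7, against 15.1% of all probe sets (6.86% higher, 8.24% lower). Gria1 (1.01 ± 0.21) and Stmn2 (0.98 ± 0.26) led the higher genes, and Ina (-0.94 ± 0.19) led the lower ones. In cortex, the response at the labelled 13 d was higher than at 48 h for 8 genes and lower for 2, against 4.13% (1.91% higher, 2.23% lower), from 1.35 for Stmn2 to -1.24 for Gabra2. Midbrain had a higher response than cortex at the labelled 48 h for 6 genes and a lower one for 4, against 5.88% (2.89% higher, 2.99% lower), with Stmn2 at 1.21 and Gabra2 at -1.10. At the labelled 13 d it was higher for 6 and lower for 6, against 13.5% (6.71% higher, 6.8% lower), with Gria1 at 1.10 and Ina at -1.23. These comparisons share groups.

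**Figure D5:**
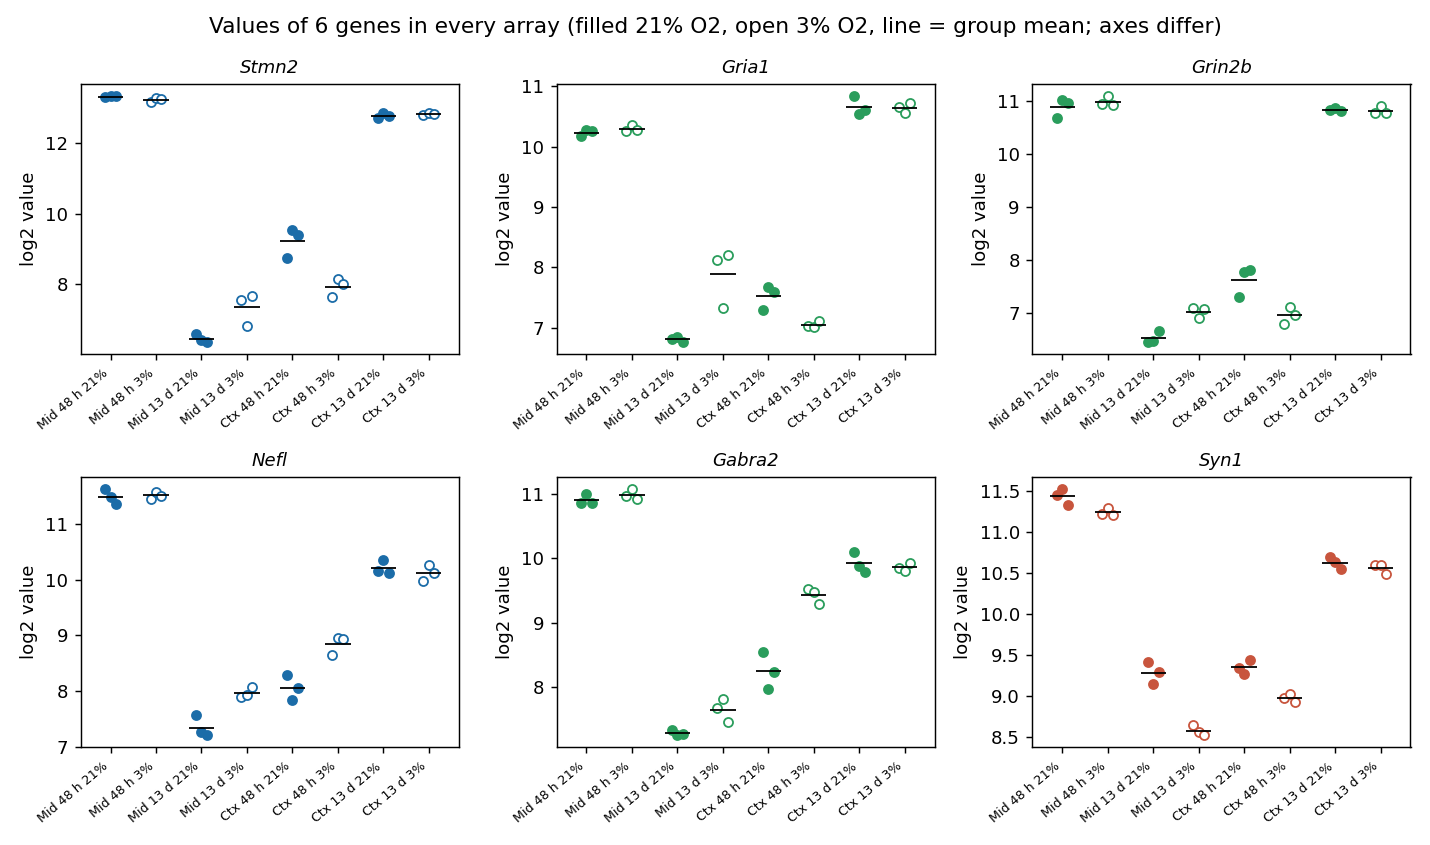
Log2 values of 6 genes in all 24 arrays, with filled points for 21% O2, open points for 3% O2 and a line at the mean of 3 arrays; the axes differ between genes. Stmn2, Gria1 and Grin2b lie higher in 3% O2 in midbrain 13 d and lower in cortex labelled 48 h, whereas Nefl and Gabra2 lie higher and Syn1 lower in both.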

How the data were processed

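Total RNA from the cultures was labelled with biotin and hybridised to 24 arrays, per the labels' protocols. The authors deposited log2 values, called normalized in the labels; background correction and normalization are not given in the sources used here. The log2 scale was read from the range, 4.654 to 14.485, and from array medians of 7.355 to 7.425. The table has no detection calls, so low values may lie at background; precision is set by having 3 arrays a group. The genes and lists were chosen with earlier results of these data known. A gene was read from its brightest probe set with 1 symbol; Vamp2 had none. Cell means of 8 groups were fitted with limma 3.58.1 in R 4.3.3 (16 residual degrees of freedom), two-sided, with Benjamini-Hochberg adjustment over 23410 probe sets, and tested on simulated data. All list genes could be named; values per array went to those with the smallest p per role and to genes opposite to their role group, and up to 3 genes per direction were named from other lists. Deviations of same-numbered arrays correlated at 0.121, 0.217 and 0.243 in midbrain 48 h and 0.123, 0.421 and 0.306 in midbrain 13 d. They correlated at 0.285, 0.417 and -0.044 in cortex labelled 48 h and at -0.014, 0.229 and -0.367 in cortex labelled 13 d. Arrays with unlike numbers reached 0.167 in midbrain 13 d, 0.348 in cortex labelled 48 h and 0.335 in cortex labelled 13 d. The midbrain numbers, where every same-numbered correlation was above 0.1, were read as pairs from the data, not from the labels. The main fit did not use these pairs, and every p-value in the text comes from that unpaired fit. Pairing entered only as the replicate block among the alternatives. The spaced motif was searched first; its shorter form was added after a match had been seen. Alternatives were median centring, quantile normalization, a variance trend, fewer arrays, other probe sets, a replicate block and leaving out each array.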

Additional observations from a re-analysis of the deposited data

Results flagged for a closer look

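Responses to oxygen (3% minus 21% O2, log2) differed between groups, by limma's test of the difference with adjustment over all probe sets, for the genes below. Differences with midbrain 13 d cross array runs, and only a run effect equal at both oxygen levels cancels in them. Midbrain 13 d minus midbrain 48 h gave 5 higher and 7 lower genes, against 15.1% of all probe sets. Higher were Stmn2 (0.98), Map1b (0.84), Nefl (0.60), Dlg4 (0.89) and Gria1 (1.01). Lower were Stmn3 (-0.66), Map2 (-0.26), Ina (-0.94), Syt4 (-0.52), Syn1 (-0.51), Syn2 (-0.56) and Syp (-0.43). Of 20 alternatives, the call of Syt4 was lost in 9, Syp in 5 and Map1b in 3. That of Stmn3 was lost in its second probe set (-0.17).

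Cortex labelled 13 d minus 48 h gave 8 higher and 2 lower genes, against 4.13%. Higher were Stmn2 (1.35), Ina (0.78), L1cam (0.85), Islr2 (1.02), Rbfox3 (0.42), Syt1 (0.93), Syn2 (0.49) and Grin2b (0.65), and lower were Nefl (-0.88) and Gabra2 (-1.24). Of 21 alternatives, the call of Syn2 was lost in 11, Grin2b in 9, Ina in 8, Rbfox3 in 7, Islr2 in 5 and L1cam in 1. Without cortex 48 h 21% O2 replicate 1 the count was 21, and it was 5 without replicate 3 of that group or of cortex 13 d 21% O2, and 6 without cortex 48 h 21% O2 replicate 2 or cortex 13 d 3% O2 replicate 1 or 2.

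Midbrain minus cortex at the labelled 48 h gave 6 higher and 4 lower genes, against 5.88%. Higher were Stmn2 (1.21), L1cam (0.92), Islr2 (0.89), Syt1 (1.02), Syt4 (0.79) and Grin2b (0.77), and lower were Nefl (-0.76), Cplx2 (-0.33), Dlg4 (-0.27) and Gabra2 (-1.10). Without cortex 48 h 21% O2 replicate 1 the count was 18. The call of Dlg4 was lost in 13 and that of Cplx2 in 10 of 21 alternatives, both under median centring (-0.24 and -0.29), a variance trend, the compared arrays alone and the replicate block.

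Midbrain minus cortex at the labelled 13 d gave 6 higher and 6 lower genes, against 13.5%. Higher were Stmn2 (0.84), Map1b (0.82), Nefl (0.71), Dlg4 (0.59), Gria1 (1.10) and Grin2b (0.51), and lower were Stmn3 (-1.08), Map2 (-0.21), Ina (-1.23), Syn1 (-0.65), Syn2 (-0.93) and Syp (-0.39). Of 20 alternatives, the calls of Map2 and Grin2b were each lost in 11, Stmn2 and Map1b each in 10 and Syp in 9. That of Stmn3 was lost in its second probe set (-0.02). The count was 7 without midbrain 13 d 3% O2 replicate 1, midbrain 13 d 21% O2 replicate 2, or replicate 2 or 3 of either cortex 13 d group.

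Midbrain 13 d minus cortex labelled 48 h gave higher values for Stmn2 (2.19), Map1b (0.89), L1cam (0.61), Islr2 (1.19), Rbfox3 (0.39), Syt1 (1.04), Sv2a (1.09), Dlg4 (0.61), Gria1 (1.55) and Grin2b (1.16). It gave lower values for Stmn3 (-0.78), Syn1 (-0.33), Syn2 (-0.44) and Gabra2 (-0.82). Of 20 alternatives, the call of Syn2 was lost in 13, Sv2a in 12, Map1b and Syn1 each in 11, Rbfox3 in 9 and L1cam in 6. That of Stmn3 was lost in its second probe set (-0.04). The count of 14 was 8 without midbrain 13 d 3% O2 replicate 1 or 21% O2 replicate 1 or 3, and 9 without midbrain 13 d 3% O2 replicate 3 or cortex 48 h 3% O2 replicate 2. These comparisons share groups with each other.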

How the results depend on the processing

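No called change of the 35 genes reversed its direction under the alternatives run for it. Counts of called genes moved as follows. Quantile normalization called 1 gene lower for oxygen in midbrain 48 h, against 0. With the compared arrays alone, the counts were 2 of 17 for oxygen in cortex labelled 48 h, 4 of 10 for the difference of responses between the cortex times, 4 of 10 for that between regions at 48 h, and 8 of 14 for midbrain 13 d minus cortex labelled 48 h. Leaving out each array gave 0 to 0 for oxygen in cortex labelled 13 d and in midbrain 48 h, 12 to 15 in midbrain 13 d, and 10 to 23 in cortex labelled 48 h. For the differences of responses it gave 9 to 12 between midbrain times, 5 to 21 between cortex times, 7 to 18 and 7 to 13 between regions at 48 h and 13 d, and 8 to 17 for midbrain 13 d minus cortex labelled 48 h. Calls that passed in every alternative numbered 10 of 14 for oxygen in midbrain 13 d and 2 of 17 in cortex labelled 48 h. For the differences of responses they were 8 of 12 between midbrain times, 4 of 10 between cortex times, 4 of 10 and 6 of 12 between regions at 48 h and 13 d, and 7 of 14 for midbrain 13 d minus cortex labelled 48 h. With the replicate block, oxygen in midbrain 48 h called 0 genes and in midbrain 13 d 19, including all 14. The difference between midbrain times called 17 (7 higher, 10 lower), including all 12. In cortex, same-numbered arrays were not read as pairs, though replicates 1 and 2 of the labelled 48 h correlated at 0.285 and 0.417. There the block called 20 at 48 h, 0 at 13 d, and 18 for the difference between times. Low signal over background could not be judged, and 3 arrays a group limit what small changes pass. The causes were not tested.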
